A study of Mus musculus with 2 samples.

Results

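Mesothelial genes are described here in 2 RNA sequencing libraries labelled as mouse adipose tissue. The 8 genes were taken by name from the 54532 genes of the deposited table: Upk3b, Upk1b, Msln, Wt1, Lrrn4, Gpm6a, Bnc1 and Muc16, all of which were present once. The groups were wild type (WT) and a knockout of Trappc9 (KO), a gene for a subunit of a vesicle-tethering complex, with 1 library each and no drug treatment in the sample labels. The mice were 3 to 4 weeks old. Per the design text, abdominal fat pads of 3 WT and 3 KO mice were digested with collagenase and pelleted, whereas the extraction label describes frozen pads and the sample titles speak of stem cells derived from adipose tissue. Which preparation was sequenced, whether mice were pooled, and how the knockout was made are not given in the sources used here. With 1 library per genotype no difference can be checked against replicates and p-values are not given.

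The mesothelium is a single layer of flat cells that lines the body cavities and covers the organs in them, abdominal fat pads and genital ducts included. Its cells derive from mesoderm but carry epithelial features, such as keratins and an apical glycoprotein coat, together with the transcription factor WT1. None of the 8 genes belongs to mesothelium alone. Uroplakins also coat the bladder lining, Wt1 is also active in kidney podocytes, Sertoli cells and progenitors of visceral fat, Gpm6a in neurons, Bnc1 in basal keratinocytes and germ cells, and Muc16 in several epithelia.

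The question was which of the genes moved with Upk3b and which against it. All of Msln, Wt1, Lrrn4, Gpm6a, Bnc1 and Muc16 were lower in the KO-labelled library, as Upk3b was, and Upk1b alone among the 8 was higher. Msln, Wt1, Lrrn4, Gpm6a, Bnc1 and Muc16 had KO over WT ratios of 0.519 to 0.687. Upk3b was lower by a larger factor than each of these 6, beyond counting error for 4 of them. The promoters of Upk3b and of Lrrn4, a gene that moved with it, are shown to give the sequence upstream of the gene all others are compared with and of one that follows it. They are the 250 bases before the RefSeq start site (GRCm38.p6), written 5′ to 3′ on the gene's strand, and capitals mark the 6-letter motif GGAATG, known to bind TEAD factors, or its reverse complement.
Upk3b, chr5:136038246-136038495, plus strand: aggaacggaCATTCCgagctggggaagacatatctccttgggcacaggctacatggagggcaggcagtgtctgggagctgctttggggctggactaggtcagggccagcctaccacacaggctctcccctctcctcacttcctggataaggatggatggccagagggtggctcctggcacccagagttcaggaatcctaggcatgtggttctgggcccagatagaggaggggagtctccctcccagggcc
Lrrn4, chr2:132880863-132881112, minus strand: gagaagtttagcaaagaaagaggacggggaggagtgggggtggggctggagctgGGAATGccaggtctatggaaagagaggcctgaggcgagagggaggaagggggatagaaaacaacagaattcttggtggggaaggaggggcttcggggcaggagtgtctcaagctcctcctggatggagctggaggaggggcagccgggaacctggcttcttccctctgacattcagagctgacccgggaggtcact

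Both promoters held GGAATG once, at 236 to 241 bases before the start in Upk3b and 191 to 196 in Lrrn4. On either strand, 12.6% of 32851 promoters of the same length held it, so a match is common. The RefSeq table held no promoter for Upk1b, Msln or Wt1, so the gene that moved against Upk3b is not covered. It held promoters for 5 of the 8 genes, 6 promoters in all because Gpm6a had 2 start sites. Of the others, the upstream Gpm6a promoter held GGAATG once, while the second Gpm6a promoter, Bnc1 and Muc16 did not hold these letters. A stretch just after the start site was found in a GENCODE transcript of the gene for Upk3b, Lrrn4 and Bnc1. It was not found for Muc16 or either Gpm6a start site. The upstream Gpm6a start site, at 54779434, also lies before the Gpm6a interval given below, which begins at 54954843. The WT1 motif GNGTGGGNG, where N is any base, was present in the Lrrn4 promoter (12.7% of all promoters). The GC box GGGCGG occurred 5 times in the Bnc1 promoter (32.7% of all promoters held it at least once), whose GC content was 83.6% against 60.8% for Upk3b and 59.2% for Lrrn4. TATAAA was present in the second Gpm6a promoter (12.4% of all promoters). The matches describe letters only.

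Levels are given as deposited FPKM, fragments per kilobase of gene length scaled by a library size, so they can be compared between genes. Fragments were recovered from these values, 13705193 in the WT-labelled library and 14783728 in the KO-labelled library. Every interval below is an exact 95% interval from these fragments. No variation between mice or preparations enters these intervals, which hold counting error alone. A gene is called higher or lower beyond counting error when its interval excludes a ratio of 1. Differences on the log2 scale are log2((KO + 1)/(WT + 1)) where the added 1 FPKM makes the difference of weakly expressed genes look smaller than it is. Trappc9 itself was at 9.94 FPKM under the WT label and 12.6 FPKM under the KO label. The gene-level value thus does not bear out the KO label, and WT and KO below name the labels of the libraries.

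Of the surface proteins, Upk3b encodes a uroplakin with 1 membrane span (chromosome 5, 136038496 to 136046487, plus strand, coordinates of the table, mm10). Its level was 22.96 FPKM (1148 fragments) in the WT-labelled library and 10.75 FPKM (543 fragments) in the KO-labelled library. The ratio was 0.468 (0.422 to 0.519), a log2 difference of −1.03. Only 0.26% of 13084 protein-coding genes that averaged 1 FPKM or more, called measured below, had a lower log2 difference.

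Upk1b (chromosome 16, 38773184 to 38800328, minus strand) encodes a tetraspanin known to pair with uroplakins of the UPK3 type in the bladder lining. It stood at 14.8 FPKM (439 fragments) in the WT-labelled library and 25.3 FPKM (756 fragments) in the KO-labelled library. The ratio was 1.71 (1.51 to 1.92) and the log2 difference 0.73, and 98.1% of the measured protein-coding genes had a lower one. The pair thus changed places: Upk3b was the higher of them in WT, with a level ratio of 1.55 (1.39 to 1.73), and Upk1b in KO, with a level ratio of 2.35 (2.10 to 2.63).

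Msln (chromosome 17, 25748614 to 25754327, minus strand) encodes mesothelin, a surface glycoprotein anchored by a lipid, and Muc16 (chromosome 9, 18495455 to 18674530, minus strand) encodes the giant mucin that mesothelin is known to bind. Msln was at 14.8 FPKM (444 fragments) and 10.2 FPKM (308 fragments), a ratio of 0.687 (0.592 to 0.796). Muc16 was the lowest of the 8 genes, at 0.490 FPKM (183 fragments) and 0.255 FPKM (96 fragments), a ratio of 0.519 (0.401 to 0.669). Its low FPKM goes with a gene length of 26350 bases, the longest of the 8, so its fragments were more numerous than those of Bnc1. Both were lower in KO, and the interval of their ratio to each other, 0.984 to 1.78 for Msln over Muc16, included equal change.

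Lrrn4 (chromosome 2, 132868305 to 132880891, minus strand) encodes a membrane protein with leucine-rich repeats, and Gpm6a (chromosome 8, 54954843 to 55060871, plus strand) a membrane glycoprotein of the proteolipid family. Lrrn4 was at 6.23 FPKM (328 fragments) and 3.88 FPKM (206 fragments), a ratio of 0.622 (0.520 to 0.743). Gpm6a was at 5.40 FPKM (246 fragments) and 3.61 FPKM (166 fragments), a ratio of 0.668 (0.545 to 0.817). Their levels did not differ beyond counting error in either library. Low-confidence transcripts that overlap Gpm6a on its own strand held at most 3 fragments each.

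Of the transcription factors, Wt1 (chromosome 2, 105126529 to 105173616, plus strand) encodes the zinc-finger factor WT1, and Bnc1 (chromosome 7, 81966672 to 81992292, minus strand) the zinc-finger protein basonuclin 1. Wt1 was at 3.74 FPKM (328 fragments) and 2.27 FPKM (201 fragments), a ratio of 0.607 (0.507 to 0.725). Bnc1 was at 1.00 FPKM (66 fragments) and 0.662 FPKM (44 fragments), a ratio of 0.660 (0.440 to 0.981). Both were lower in KO, Bnc1 only just beyond counting error.

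**Figure D1:**
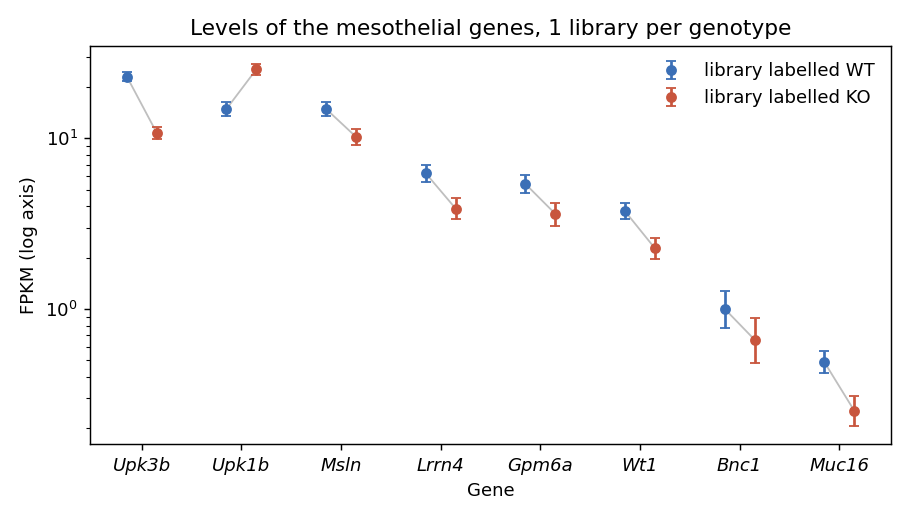
Level of each of the 8 mesothelial genes in FPKM (vertical log axis) in the libraries labelled WT (blue) and KO (red), with exact 95% counting intervals. Grey lines join the libraries; Upk1b goes from 14.8 to 25.3 FPKM, and the other 7 genes go down.

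The order of levels was the same in both libraries except at its top. In the WT-labelled library it ran Upk3b, Upk1b, Msln, Lrrn4, Gpm6a, Wt1, Bnc1, Muc16, and in the KO-labelled library Upk1b came first and Upk3b second. Neighbours that did not differ beyond counting error were Upk1b and Msln in WT (level ratio 1.00, 0.875 to 1.14), Upk3b and Msln in KO (1.06, 0.916 to 1.22), and Lrrn4 and Gpm6a in both. All other neighbours differed. Together the 8 genes took 0.0232% of all fragments in WT (exact binomial interval 0.0224 to 0.0240) and 0.0157% in KO (0.0151 to 0.0163). Within these, Upk1b took 13.8% of the fragments in WT and 32.6% in KO, and Upk3b 36.1% and 23.4%.

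In all, 7 of the 8 genes were lower beyond counting error and 1 was higher. Among all measured protein-coding genes, 17.6% were lower and 24.6% higher by the same rule. Depth affects such a call, so the background was also taken over 8753 protein-coding genes with 110 to 1691 fragments, the range of the 8 genes: 18% of these were lower and 18.9% higher. Upk3b alone was at least 2-fold lower on the log2 scale, against 0.29% of measured protein-coding genes, and 0 of the 8 were at least 2-fold higher, against 0.948%. The means of Bnc1 and Muc16 were under 1 FPKM, so 6 of the 8 passed the filter on low values. Over all 8 the median log2 difference was −0.49, and over those 6 it was −0.52, against 0.02 for all measured protein-coding genes. Lower values in such bulk samples could come from fewer cells of a type or from less RNA per cell, which cannot be told apart here.

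**Figure D2:**
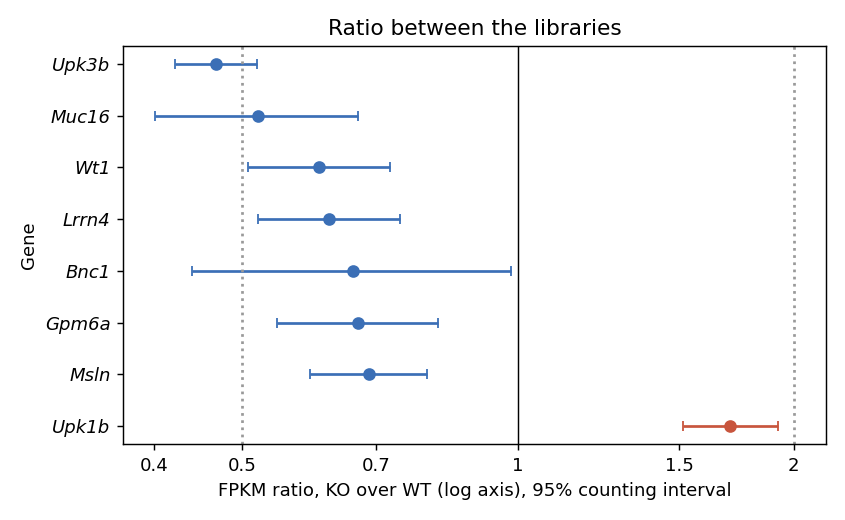
FPKM ratio of KO over WT for each gene (horizontal log axis) with exact 95% counting intervals; the solid line marks a ratio of 1 and dotted lines a 2-fold difference. Upk3b lies lowest at 0.468, and Upk1b at 1.71 is the 1 gene to the right of the solid line.

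By the KO over WT calls above, 1 gene moved against Upk3b and the others with it. How far each gene changed relative to Upk3b was taken within each library, which no scaling between libraries can alter. This measure does not itself give the direction of a gene. Upk1b, which went against Upk3b, was at 0.646 of the level of Upk3b in WT and 2.35 times that level in KO. This was a change of 3.64-fold (3.11 to 4.27). Msln, Wt1, Lrrn4 and Gpm6a went with Upk3b in direction but by a smaller factor. Their ratio to Upk3b was higher in KO by 1.47-fold for Msln (1.22 to 1.76), 1.43-fold for Gpm6a (1.13 to 1.79), 1.33-fold for Lrrn4 (1.08 to 1.63) and 1.30-fold for Wt1 (1.05 to 1.59). Muc16 (1.11-fold, 0.839 to 1.46) and Bnc1 (1.41-fold, 0.927 to 2.13) had intervals that included equal change with Upk3b. Neither is set apart from the 4 genes just named, since no pair of the 6 differed beyond counting error.

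With Upk1b included, the ratio to Upk3b was therefore higher in KO for 5 of 7 genes. Since Upk3b was among the lowest of all genes, most genes gained on it: the same held for 95.9% of measured protein-coding genes. Among Msln, Wt1, Lrrn4, Gpm6a, Bnc1 and Muc16 themselves, 0 of 15 pairs changed relative to each other beyond counting error, with changes between 0.908-fold and 1.32-fold. This does not show that they changed alike, as the intervals were wide. Upk1b differed from each of the other 7, by 2.48-fold (2.05 to 3.01) from Msln at the least.

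**Figure D3:**
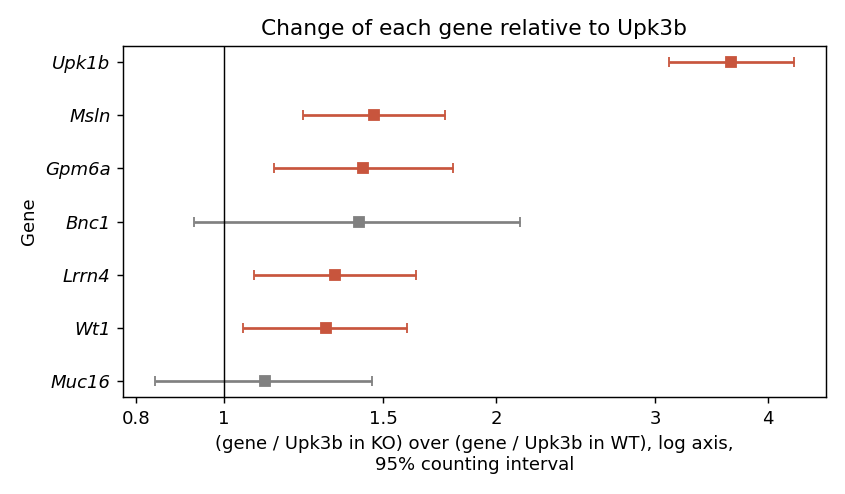
Change of each gene's ratio to Upk3b from WT to KO (horizontal log axis) with exact 95% counting intervals; red intervals lie above 1 and grey ones include it. Upk1b stands at 3.64, while the other 6 genes lie between 1.11 and 1.47.

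The remaining uroplakins were low except for Upk1a. Upk1a, a tetraspanin closely related to Upk1b, was at 9.69 FPKM (195 fragments) and 13.7 FPKM (278 fragments), a ratio of 1.41 (1.17 to 1.70), so both tetraspanin uroplakins were higher in KO. Upk2, the known partner of Upk1a, was at 1.04 and 1.16 FPKM with an interval of 0.536 to 2.34. Upk3a rested on 1 and 9 fragments and was higher beyond counting error, with a very wide interval (1.23 to 391). Upk3bl rested on 4 and 10, with an interval that included 1. Of 5 measured genes of the bladder lining, Upk1a included, 2 were lower and 1 higher, against 17.6% and 24.6% of all measured protein-coding genes. The 2 lower ones were Krt5 and Trp63, which are counted again among the basal keratinocyte genes below, and the higher one was Upk1a. The bladder-lining keratin gene Krt20 was at 0.769 and 0.544 FPKM, and Krt13 had 1 fragment in WT and 0 in KO. Of the relatives of mesothelin and the mucins, Muc20 was at 4.19 and 3.92 FPKM with an interval that included 1. Named after their values were seen, Mslnl had 4 fragments in each library, Muc4 110 and 80, and Muc1, a mucin of many epithelia, 21 and 40 (ratio 1.89, 1.09 to 3.37, but 0.944 to 2.93 under TPM scaling).

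Other genes known from mesothelium or from the coelomic lining it derives from gave mixed results. Of 32 such genes 24 were measured, and of these 10 were lower and 4 higher beyond counting error, against 17.6% and 24.6% of all measured protein-coding genes. Their median log2 difference was −0.19, against 0.02. By the rule of largest difference, Nkain4 was at 9.52 and 6.21 FPKM (ratio 0.652, 0.508 to 0.835) and Gata6, a transcription factor of coelomic mesoderm, at 2.68 and 1.55 FPKM (0.579, 0.460 to 0.726). C3, a complement gene also made by fibroblasts, was at 144 and 107 FPKM, and Igfbp6, an IGF-binding protein gene, at 177 and 133 FPKM. Named after its value was seen, the tight-junction gene Cldn15 was at 6.78 and 5.13 FPKM (0.757, 0.611 to 0.937). The 4 higher ones were the epithelial genes Krt8, Krt18, Krt19 and Ezr, with ratios of 1.05 to 1.11, all of which are also abundant in other epithelia (Krt8 at 246 and 258 FPKM). This direction depended on the scaling: after rescaling to TPM, 0 of the 24 were higher and 22 lower, against 48.4% lower among all measured protein-coding genes. Calb2, the calretinin gene used as a marker of human mesothelium, had 0 fragments in WT and 2 in KO.

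**Figure D4:**
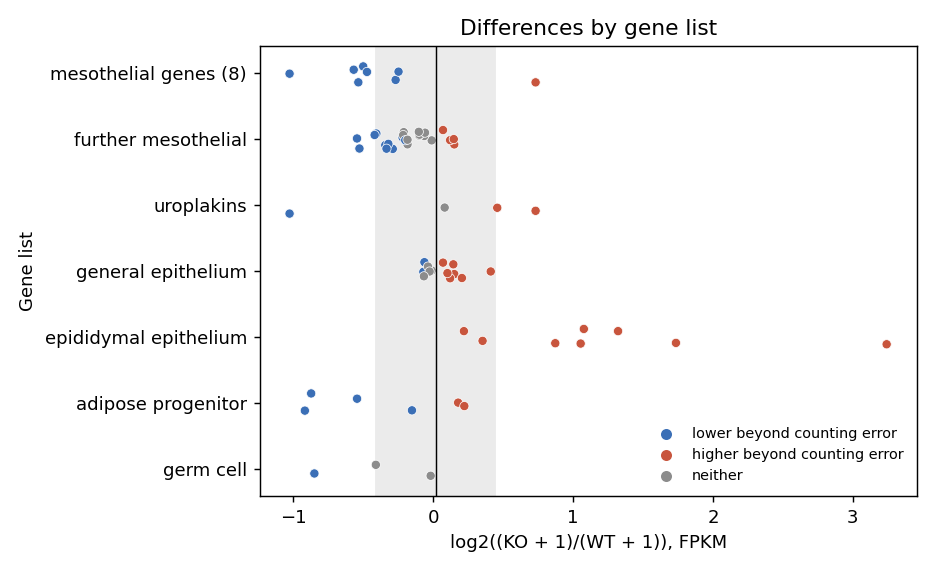
Log2 difference in FPKM (horizontal axis) of the 8 mesothelial genes and of the members of 6 other lists averaging 1 FPKM or more, coloured by the call beyond counting error; vertical scatter has no meaning. The grey band, −0.41 to 0.44, holds the middle 90% of all measured protein-coding genes and the line marks their median; Upk3b, Msln, Wt1, Lrrn4 and Gpm6a lie left of the band, and Upk1b right of it.

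Other cell types that can express these genes were present to different degrees. General epithelial genes were abundant, with summed levels of 1381 and 1458 FPKM and a median of 0.07. Of 13 such genes 7 were higher and 2 lower. Krt7, Krt8, Krt18 and Krt19 are also on the list of further mesothelial genes, and all but Krt7 are counted as higher in both lists. For this list and those that follow, the shares of all measured protein-coding genes are again 24.6% higher and 17.6% lower. Elf3, an epithelial transcription factor, had the largest difference (58.3 and 77.9 FPKM), and Cldn7 was at 73.3 and 84.6 FPKM. Under TPM scaling 9 of the 13 were lower and 1, Elf3, higher, with 48.4% lower and 7.88% higher among all measured protein-coding genes. All 8 epididymal genes were higher beyond counting error, with log2 differences of 0.22 to 3.24 and summed levels of 16773 and 23560 FPKM. Epididymal genes and Upk1b were thus higher in the same library, and their part in the Upk1b difference was not tested.

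For Wt1, the podocyte gene Nphs1 had 0 fragments in both libraries, while Podxl (11.5 and 12.0 FPKM) and Synpo (5.97 and 5.31 FPKM), which other cells also express, were detected in both. Among Sertoli cell genes Amh had 17 and 7 fragments and Rhox5 0 and 5, whereas Sox9 (28.7 and 27.1 FPKM) and Cldn11 (19.5 and 17.5 FPKM), neither confined to Sertoli cells, had intervals that included 1. Adipose progenitor genes, of which 4 of 6 were lower and 2 higher with a median of −0.35, went in both directions: Cd34 was at 52.6 and 27.4 FPKM, Dlk1 at 8.80 and 4.35 FPKM and Pi16 at 18.2 and 12.2 FPKM, but Ly6a at 67.5 and 78.9 FPKM. Under TPM scaling neither Ly6a nor Dpp4, the other higher gene, was higher beyond counting error. Their part in the Wt1 difference was not tested. Among 5 measured genes linked to Wt1, 1 was lower and 2 higher. Sall1 was higher (0.965 and 1.61 FPKM) and Wtip lower (11.3 and 9.18 FPKM). Wtap was higher (10.4 and 12.1 FPKM, not beyond counting error under TPM scaling). Cited1 was at 10.4 and 11.3 FPKM with an interval that included 1, and Six2 had 0 fragments in both. Amhr2 (40 and 13 fragments) and Nr5a1 (14 and 3 fragments), averaging under 1 FPKM and named after their values were seen, were also lower. Without the filter, 3 of the 10 genes on this list were lower and 2 higher, but no share was taken over all genes without the filter.

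For Bnc1, basal keratinocyte genes were well above it: 2 of 5 were lower, Krt5 (49.1 and 43.1 FPKM) and Trp63 (13.4 and 10.2 FPKM), and the median was −0.12. Of 3 measured germ cell genes 1 was lower, Ddx4 at 3.77 and 1.65 FPKM. Dazl, averaging under 1 FPKM and named after its value was seen, was also lower, with 52 and 3 fragments. Zbtb16 was at 4.58 and 4.51 FPKM, Sycp3 at 1.28 and 0.719 FPKM, and Stra8 had 5 and 0 fragments. For Gpm6a, the neural gene Snap25 had 0 fragments in both libraries and the Schwann cell gene S100b was at 1.81 and 2.83 FPKM. The part of keratinocytes and germ cells in the Bnc1 difference was not tested. Lymphatic endothelial genes, which share Pdpn with mesothelium, had a median of −0.05, with Pdpn at 32.4 and 30.9 FPKM, Lyve1 lower at 11.7 and 9.80 FPKM and Ccl21a higher at 2.81 and 12.0 FPKM.

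The genes most like Upk3b were sought among 4530 protein-coding genes whose mean was within 2-fold of its own, by the distance between log2 differences. With only 2 libraries this likeness is a single number per gene. The 5 closest were Cox6b2, a testis form of a respiratory chain subunit (12.7 and 5.74 FPKM), the germ line gene Mael (14.3 and 6.37 FPKM), the tubulin gene Tuba3b (15.4 and 6.85 FPKM), the galectin gene Lgals7 (12.6 and 5.51 FPKM) and the pentraxin gene Ptx3 (15.1 and 7.61 FPKM). Of the other mesothelial genes only Upk1b and Msln had means in that range and could have been found, and neither was among the 5. Of the 4530 genes, 7 had a log2 difference at or below that of Upk3b.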

How the data were processed

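RNA sequencing libraries of 1 WT and 1 KO sample were compared from the authors' deposited table of FPKM per gene. HISAT2 2.0.5 is the tool named in the submitters' processing notes, which list hg38 beside mm10; the counting program, and whether it used strand, are not given in the sources used here. FPKM times gene length, divided by the step that 1 fragment makes in that library, was whole within 0.01 for 100% of values above 0, which gave the fragments. Intervals for KO over WT are Clopper-Pearson intervals, tested only on simulated counts that held counting error alone. Those for a ratio to Upk3b are exact conditional odds-ratio intervals (scipy 1.17.1, Python 3.11.15) and were not tested on simulated data. The filter for background and medians was a mean of at least 1 FPKM. Of several lines with 1 symbol, that of highest mean level was taken. The members and the 15 gene lists were chosen with earlier results of these data known, and the motifs after the promoters had been read. Named from each list were up to 4 measured genes with the largest log2 difference and those at 0; members listed with few fragments and others were named after their values were seen. Alternatives were TPM, scaling by total fragments, pseudocounts of 0.1 and 5 FPKM, no filter, and Msln in place of Upk3b.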

Additional observations from a re-analysis of the deposited data

How the results depend on the processing

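Under every scaling tried, 7 of the 8 mesothelial genes were lower and Upk1b higher beyond counting error. Rescaling to TPM moved the median of all measured protein-coding genes by −0.19; relative to that median Upk3b stood at −1.10 and Upk1b at 0.73. The median of the 6 measured mesothelial genes, −0.52 as reported, was −0.78 after TPM and −0.31 with a pseudocount of 5 FPKM, with which 0 genes were at least 2-fold lower. For the 24 further mesothelial genes the median was −0.41 after TPM. Of these, 22 were lower and 0 higher after TPM, and 16 lower and 1 higher when scaled by total fragments. Those counts moved with the scaling, as did the background, 48.4% and 30.3% lower. With Msln as the gene compared with, 1 other gene, Upk1b, had a higher ratio to it in KO, against 5 with Upk3b. Upk3b had a lower ratio to Msln in KO (0.682-fold, 0.569 to 0.818). The share of all measured genes with a higher ratio to Msln was not taken, so these counts cannot be read against each other. Bnc1, with 66 and 44 fragments, and Muc16 limit what depth can show. With 1 library per genotype no library could be left out and no paired analysis was possible because there are no replicates.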

Other observations

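Some genes of the coelomic lining and of the gonad that forms from it were near the detection limit and were lower beyond counting error in the library labelled KO. They were named after their values were seen, from the further mesothelial genes and the genes linked to Wt1. No share called lower was taken over all genes of similarly low level. Of low genes on the same lists, Prg4 (10 and 12 fragments), Cdh2 (33 and 26) and Lhx9 (2 and 1) were not lower beyond counting error. Gata4, a transcription factor of coelomic mesoderm and gonad, had 13 fragments in WT and 1 in KO (ratio 0.0762, 0.0018 to 0.507). Tbx18, a transcription factor of the coelomic and ureter mesenchyme, had 39 and 17 fragments (0.432, 0.229 to 0.781). Amhr2, the receptor gene for anti-Müllerian hormone, had 40 and 13 fragments (0.322, 0.158 to 0.614), and Fgf9, a growth factor gene of mesothelium and testis, 71 and 42 (0.586, 0.390 to 0.870). Nr5a1, the steroidogenic factor gene, had 14 and 3 (0.212, 0.0391 to 0.760). Bnc2, the relative of Bnc1, was higher instead, with 77 and 107 fragments (1.38, 1.02 to 1.87), but not beyond counting error under TPM scaling (0.884 to 1.62) or scaling by total fragments (0.952 to 1.75).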
